A study of Caenorhabditis elegans with 2 samples.

Results

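The genes described here are mcd-1 and 3 other modifiers of programmed cell death in Caenorhabditis elegans: icd-1, icd-2 and eif-3.K. They were taken by name from the WBcel235 gene models, 4 genes of 19973 protein-coding genes on the nuclear chromosomes, and every peak within 2000 bp of each was collected. The data are chromatin immunoprecipitation with sequencing (ChIP-seq) of the MCD-1 protein in whole young adult worms aged 65 hours, grown from larvae synchronised by starvation. The strain, RW12215, carries st12215[mcd-1::TY1::EGFP::3xFLAG] II, an insertion made with CRISPR at the endogenous gene, and an anti-GFP antibody recovered the tagged protein. There were 2 biological replicates of this 1 group, with no untagged or input sample used here, so a peak is described by its value in each replicate and no condition is compared. Whole animals were used, so the cells in which the protein lay at a site cannot be told apart.

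MCD-1 is a zinc finger protein that promotes programmed cell death, and in genetic tests its role overlaps with that of LIN-35, the worm retinoblastoma protein. ICD-1 and ICD-2 are the beta and alpha subunits of the nascent polypeptide-associated complex, which binds new proteins as they leave the ribosome; loss of icd-1 leads to ectopic cell death. EIF-3.K is a small subunit of translation initiation factor eIF3 that promotes cell death in the worm. The core pathway runs from the trigger EGL-1 through CED-9 and the adaptor CED-4 to the caspase CED-3.

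The deposited lists were a conservative list of 3903 peaks, a pooled list of 4460, and lists of 3339 and 3051 peaks for replicates 1 and 2. Each had a longer ranked list behind it, of 44691 to 57391 peaks. The thresholded lists held only scores of 830 or more, which in the ranked lists corresponds to an irreproducible discovery rate (IDR) of 0.01 or less. The IDR is the expected share of peaks of that rank or better that would not repeat, and it is given here as −log10, capped in the files at 5. The signal value is the enrichment measure that the authors deposited for each peak, whose scaling no source used here states. A replicate's value at a peak is also given as a multiple, its own signal divided by the median that its peaks reached where conservative peaks lay (a median of 87.3 for replicate 1, and for replicate 2 of 66.7). Read depth is unknown, because the lists hold no counts.

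Peaks of the conservative list lay within 2000 bp of all 4 genes, against 25.4% of protein-coding genes, a share that also depends on gene length. A promoter-proximal summit, at most 1000 bp before or 200 bp after the annotated 5′ end, was present at mcd-1, icd-1 and icd-2, 3 of 4 genes, against 13.2% of all genes. At eif-3.K the peak stood at the promoter of a neighbour. The reference DNA under the strongest site of 3 of the genes is shown so that the motif matches can be read. Which of these bases the protein contacted is unknown. The sequences come from the RefSeq WBcel235 genome (ce11). They are the part of the mcd-1 peak upstream of the gene, chrII:13888392-13888543 on the plus strand, and 201 bp centred on the summit for icd-1, chrII:6588969-6589169 on the minus strand, and for eif-3.K, chrV:12952352-12952552 on the plus strand. Capitals mark matches, on either strand, to the searched motifs listed further on.
mcd-1: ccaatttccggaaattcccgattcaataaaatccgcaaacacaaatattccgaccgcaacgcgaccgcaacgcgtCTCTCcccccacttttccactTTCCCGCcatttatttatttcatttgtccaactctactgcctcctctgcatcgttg
icd-1: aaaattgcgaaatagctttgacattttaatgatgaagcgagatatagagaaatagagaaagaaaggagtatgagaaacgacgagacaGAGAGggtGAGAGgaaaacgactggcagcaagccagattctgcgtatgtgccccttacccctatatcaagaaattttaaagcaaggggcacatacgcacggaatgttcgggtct
eif-3.K: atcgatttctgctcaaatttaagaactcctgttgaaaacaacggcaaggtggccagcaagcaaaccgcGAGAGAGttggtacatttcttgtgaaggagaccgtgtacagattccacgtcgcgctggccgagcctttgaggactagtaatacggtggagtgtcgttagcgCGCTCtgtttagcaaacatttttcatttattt

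The gene of the tagged protein, mcd-1 (WBGene00013096), lies on the plus strand of chromosome II from 13888544 to 13898463. Its peak of 242 bp, chrII:13888392-13888633, covered the 5′ end and the first part of the 5′ untranslated region. The signal was 365 in the conservative list. Replicate 1 gave a signal of 202, at rank 811 of 46845 ranked peaks, and replicate 2 gave 159, at rank 748 of 44691. As multiples of the median these were 2.32 and 2.38, a mean of 2.35 ± 0.0417 (SD, n = 2). The log2 ratio of the replicates was -0.04, small beside its SD of 0.54 over the 3860 conservative peaks measured in both. The summits of the replicates lay at -33 and -10 bp from the 5′ end, where negative values are upstream. The −log10 IDR was 5.00 in all 4 ranked lists.

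The rest of the mcd-1 locus had weak entries. The window of 13.9 kb held 15 ranked peaks in replicate 1 and 19 in replicate 2, and the promoter peak was the single entry past the IDR limit in each. The strongest of the others had a signal of 36.5 in replicate 1, at 10145 bp, beyond the 3′ end. In replicate 2 it was 41.9 at 7983 bp, within the gene. In the conservative ranking these places had a −log10 IDR of 0.92 and 0.19, below the limit. Upstream, the histone deacetylase family gene hda-10 ends 509 bp before mcd-1 on the same strand, and downstream W02B8.1 overlaps its end by 121 bp on the other strand. Both neighbours within 2000 bp lacked a thresholded peak inside the window.

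icd-1 (WBGene00002045), encoding the beta subunit of the nascent chain complex, lies on the minus strand of chromosome II from 6587577 to 6588655. Its conservative peak, chrII:6588875-6589241, did not touch the gene and had its summit at -414 bp. The conservative signal was 761, at rank 333. Replicate 1 gave a signal of 430 and replicate 2 gave 336, at ranks 361 and 300 of their ranked lists. The multiples were 4.93 and 5.03, a mean of 4.98 ± 0.0740 (SD, n = 2), so the replicates differed by a log2 ratio of -0.03. Here too the −log10 IDR was 5.00 in all 4 ranked lists.

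The site lies in the interval of 1052 bp between icd-1 and vps-32.1, a divergent gene for an ESCRT-III subunit of membrane sorting. Among protein-coding genes the nearest 5′ end was that of icd-1. The peak overlapped a pair of annotated noncoding RNA genes on opposite strands, C56C10.14 (6588923 to 6589066) and C56C10.15 (6588779 to 6589129). The summit itself lay inside C56C10.15, which is on the strand of icd-1, and the 5′ ends of both noncoding genes are nearer to the summit than that of icd-1. Signal from the promoter of icd-1 and from these noncoding genes cannot be told apart in a peak of this width.

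A second place at icd-1 differed between the replicates. The next gene, C56C10.7, follows on the same strand after a gap of 1 bp. The pooled list had a peak in the 3′ untranslated region of icd-1, chrII:6587603-6587770, with a signal of 115 and its summit at -102 bp from the 5′ end of C56C10.7. Replicate 1 had a thresholded peak at the same place, with a signal of 123 and a −log10 IDR of 4.27. In replicate 2 the overlapping peak had a signal of 16.4 and a −log10 IDR of 0.16. The multiples were 1.41 and 0.246, a log2 ratio of 2.52, against the SD of 0.54 over the conservative peaks. That SD does not measure the spread of peaks outside the conservative list, as this one is. The summit of the replicate 2 peak lay 147 bp from that of the pooled peak. Replicate 2 instead had a thresholded peak at chrII:6587159-6587502, with a signal of 53.8 and its summit inside C56C10.7, 1324 bp from the 5′ end of icd-1 where that of replicate 1 lay at 971 bp. The pooled peak had a −log10 IDR of 3.33 in the pooled ranking but of 0.21 in the ranking behind the conservative list, which does not hold it among its thresholded peaks.

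icd-2 (WBGene00022042), the alpha subunit gene of the same complex, lies on the plus strand of chromosome I from 535791 to 536587 and had the strongest promoter peak of the 4 genes. Its peak, chrI:535224-535654, was 431 bp wide with its summit at -342 bp. The conservative signal was 1993, at rank 76 of 3903. Replicate 1 gave a signal of 1209 at rank 73, and replicate 2 gave 793 at rank 79. The multiples were 13.9 and 11.9, a mean of 12.9 ± 1.40 (SD, n = 2). All 3 summits, of the series and of each replicate, fell on the same base, 535449. That base lies in the gap between psf-3, the upstream neighbour on the same strand, and icd-2, and the peak reached into psf-3.

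The icd-2 window was crowded. It held 5 conservative peaks, a number that 0.275% of protein-coding genes reached, although icd-2 itself is short. An overlapping pair among them matched the same peak in each replicate, and only the promoter peak had icd-2 as its nearest protein-coding 5′ end. The thresholded lists of replicates 1 and 2 held 5 and 3 peaks in the window. A peak of 507 bp, chrI:536600-537106, filled the space after icd-2 and before wwp-1, which encodes a HECT-type ubiquitin ligase. Its conservative signal was 1316 and its rank 141. The multiples were 9.13 in replicate 1 and 7.74 in replicate 2, a mean of 8.44 ± 0.983 (SD, n = 2). The summit lay at -248 bp from wwp-1 and inside Y65B4BR.10, a noncoding RNA gene on the other strand. The 5′ end of Y65B4BR.10 is the nearest to it, and among protein-coding genes that of wwp-1, so icd-2 is not the nearest by either measure.

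Upstream, 2 overlapping conservative entries stood at psf-3, which encodes a subunit of the GINS replication complex. The first, chrI:534257-534434, had a signal of 173 with its summit just upstream of psf-3. The second, chrI:534380-534749, had a signal of 4.29, at rank 3887 of 3903. Both overlapped the same peak in each replicate, with multiples of 1.30 and 0.898 (mean 1.10 ± 0.282 SD, n = 2). The replicates' summits lay 8 and 25 bp from the first entry and 203 and 186 bp from the second, so the replicates place the signal at the first. The last entry, chrI:538582-538951, lay within wwp-1, with multiples of 0.659 and 0.504 (mean 0.582 ± 0.110 SD, n = 2). It overlapped a thresholded peak in replicate 1 but not in replicate 2, where the −log10 IDR was 1.60. Inside icd-2 itself replicate 1 alone had a thresholded peak, with a signal of 51.7 at 315 bp, where replicate 2 gave 14.8.

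eif-3.K (WBGene00001233), on the plus strand of chromosome V from 12954002 to 12955229, was the weakest of the 4. Its conservative peak, chrV:12952267-12952636, had a signal of 86.2 at rank 3209 of 3903. The summit lay at -1550 bp from eif-3.K but at -184 bp from pqn-68, a gene on the same strand named for a prion-like glutamine and asparagine rich domain. Replicate 1 gave a signal of 49.3 and replicate 2 gave 39.5. The multiples were 0.565 and 0.592, a mean of 0.579 ± 0.0192 (SD, n = 2), so the replicates were close in level. Neither replicate's own thresholded list held the peak, with a −log10 IDR of 1.73 in replicate 1 and 0.22 in replicate 2, while the ranking behind the conservative list gave 2.50. Of the 3903 conservative peaks, 708 (18.1%) likewise overlapped no thresholded peak of either replicate.

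The other entries around eif-3.K were all below the IDR limit. In the conservative ranking the entries nearest to its 5′ end were signals of 28.4 at -469 bp, 25.1 at -183 bp and 27.3 at 387 bp, with −log10 IDR values of 0.49, 0.45 and 0.48. Further into the gene and just past its end were 8.51 at 836 bp, 15.1 at 1114 bp and 12.3 at 1317 bp, each with a −log10 IDR of 0.10. Replicate 1 had summits at -447, -220 and 376 bp with signals of 25.5, 15.4 and 26.0, and none at the later 3 places. Replicate 2 had a summit at 76 bp with a signal of 14.4, outside the first 3 conservative entries, and signals of 9.68 at 858 bp and 9.89 at 1135 bp. Around the 5′ end and through the gene the replicates thus differed in where they placed the weak signal. Beyond the gene, in mpst-7, they placed alike the strongest entry below the limit in the conservative ranking. That entry was 51.1 at 1831 bp with a −log10 IDR of 1.07. Its signal was 25.7 at 1831 bp in replicate 1 and 23.7 at 1819 bp in replicate 2. Replicate 1 also had signals of 10.8 at 2366 bp and 18.9 at 2996 bp in mpst-7, where replicate 2 had no entry. The gene model of eif-3.K begins with coding sequence, so its 5′ end is a start codon and not a mapped transcription start. Downstream it overlaps mpst-7, named as a sulfurtransferase gene, by 20 bp on the other strand.

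**Figure D1:**
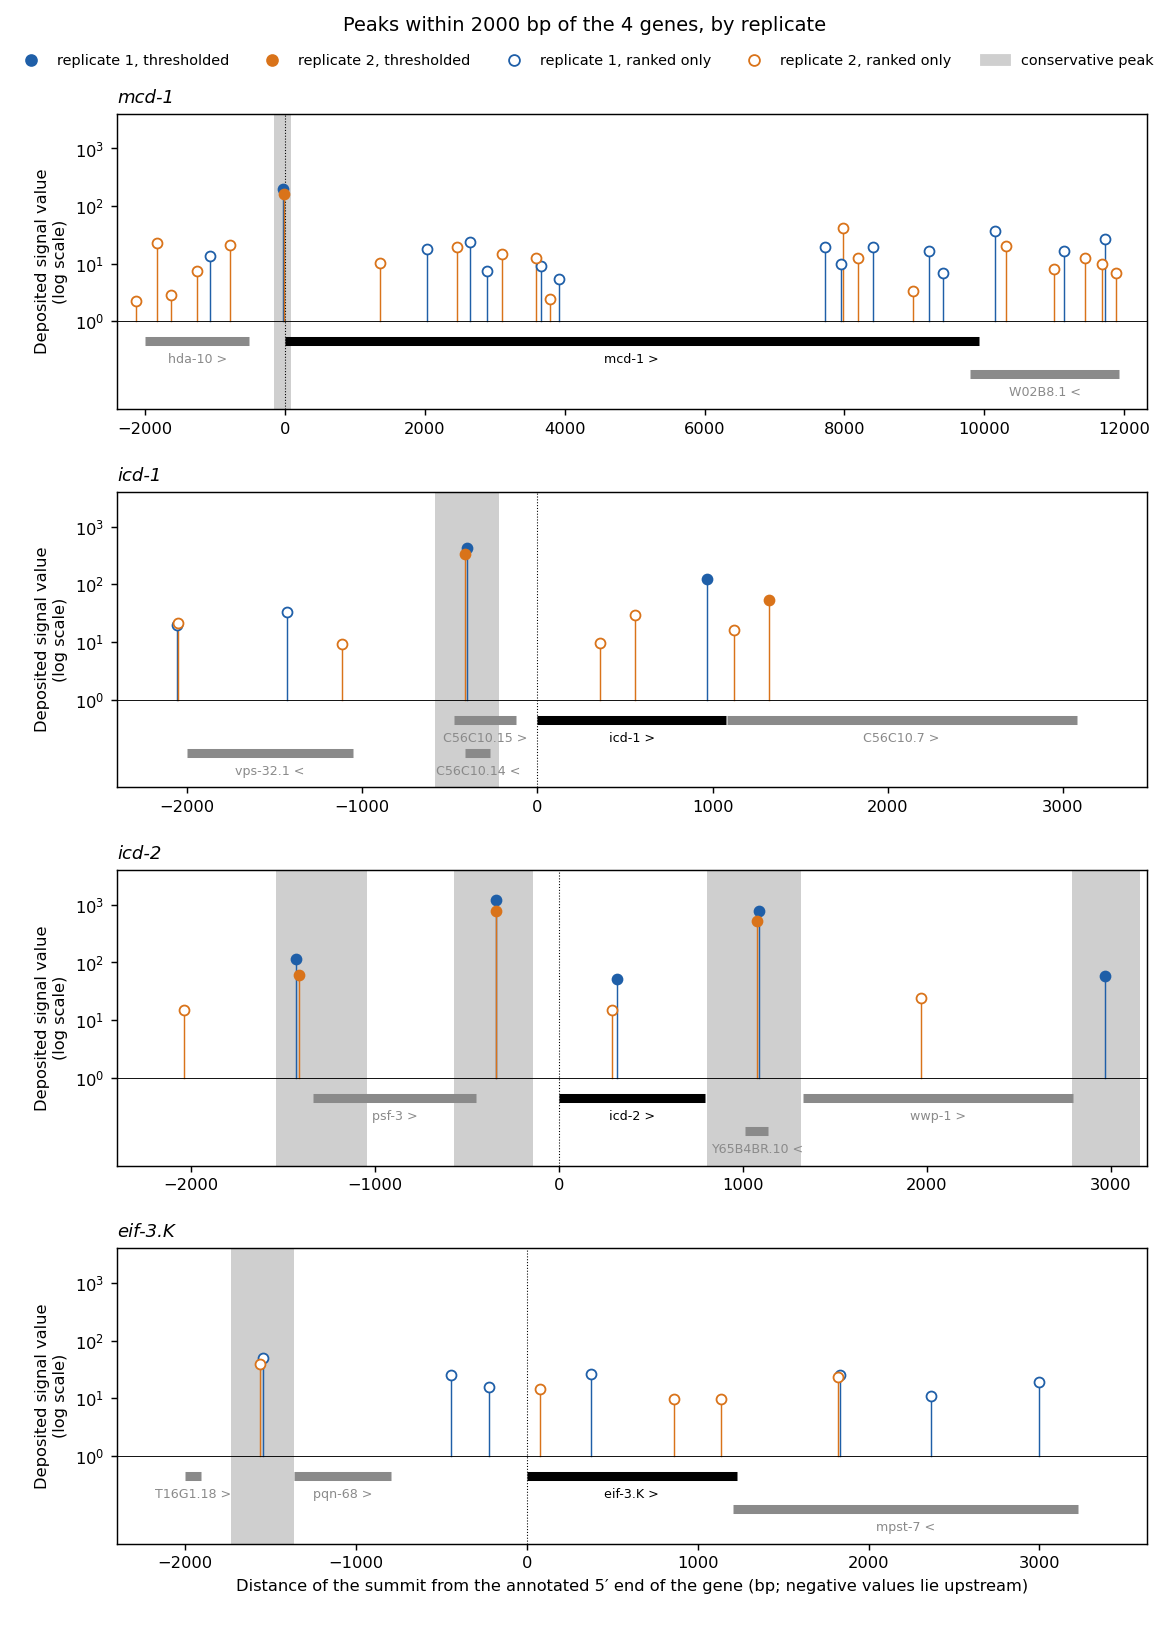
Each panel shows 1 gene in its direction of transcription, with the distance of each peak summit from the annotated 5′ end in bp on the x axis and the deposited signal value on a log y axis. Circles are peaks of replicate 1 (blue) and replicate 2 (orange), filled where the replicate's own thresholded list holds them; grey bands are conservative peaks, and bars are genes, with neighbours drawn only inside the window. At mcd-1 the filled circles of 202 and 159 stand alone, while icd-2 is flanked by strong peaks on both sides and eif-3.K has no filled circle.

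The order of the 4 genes by their strongest conservative signal was icd-2, icd-1, mcd-1 and eif-3.K, at ranks 76, 333, 748 and 3209. Both replicates gave this order, in which the value for eif-3.K is that of the peak at the promoter of pqn-68. The neighbouring means of 12.9, 4.98, 2.35 and 0.579 times the median were each further apart than the SD of either. An SD of 2 values is a rough measure, and at these peaks it ran from 0.0192 to 1.40. Among the 2636 genes with a promoter-proximal conservative summit, whose strongest signal had a median of 224, icd-2 stood at the 96.4th percentile, icd-1 at the 84.0th and mcd-1 at the 67.9th. The mcd-1 peak was narrower than most: 23.1% of conservative peaks were 242 bp or less, and 53.0% were exactly 370 bp wide. The eif-3.K peak was one of those at 370 bp.

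**Figure D2:**
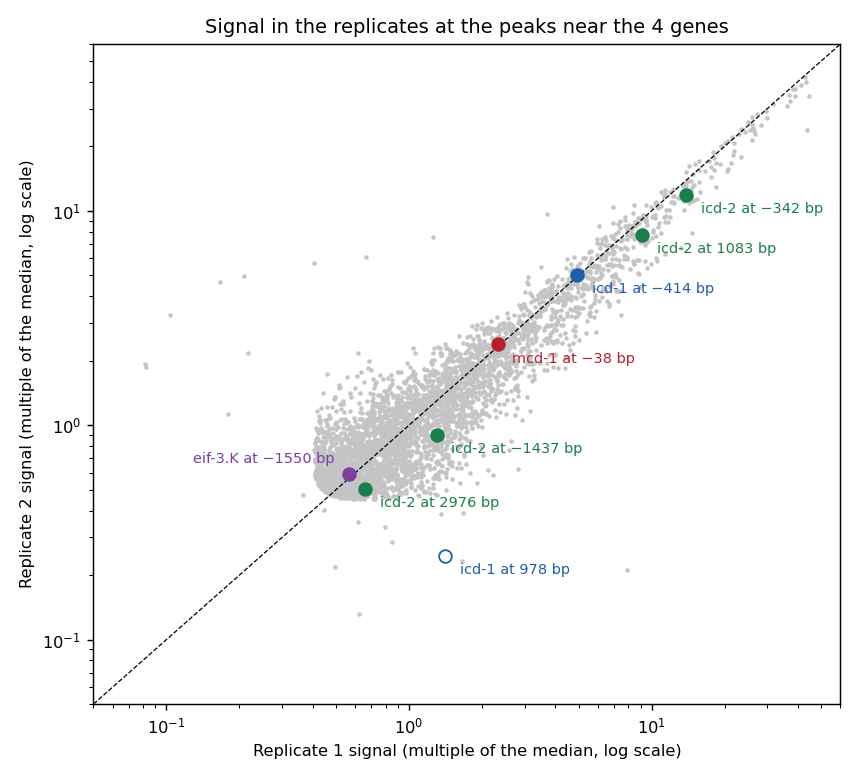
Signal in replicate 1 (x axis) and replicate 2 (y axis), each as a multiple of that replicate's median over the conservative peaks, on log axes. Grey points are the 3860 conservative peaks measured in both replicates, coloured points the peaks near the 4 genes labelled by summit distance from the 5′ end, the open circle a peak of the pooled list alone, and the dashed line equal values. The conservative peaks near the genes lie close to the line, and the open circle at the end of icd-1, with 1.41 against 0.246, lies far below it.

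In the pooled list peaks again lay near all 4 genes (27.8% of all genes). In the list of replicate 1 (23.3%) and in that of replicate 2 (21.4%) they lay near 3 of 4, the exception being eif-3.K. With only the peaks whose nearest protein-coding 5′ end was the gene itself, 3 of 4 genes were left in the conservative list (14.2% of all genes). Peaks whose signal reached the list's median also lay near 3 of 4 (16.6% of all genes). Every one of the 4 had peaks in the ranked list behind the conservative list, as did 60.7% of all genes, and all 4 had them in the ranked lists of replicate 1 (67.8%) and replicate 2 (64.0%), so an entry there by itself is common.

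The genes whose pair of replicate values was nearest were found among 1793 genes with a symbol and a promoter-proximal conservative peak, by the distance between log2 multiples over the 2 replicates. For mcd-1 they were zip-11, a bZIP factor gene, at 2.28 and 2.36, and the ribosomal protein gene rpl-24.1 at 2.35 and 2.43. For icd-1 they were the splicing factor gene syf-2 at 4.98 and 5.09 and the coronin gene cor-1 at 4.98 and 5.11. For icd-2 they were rib-2 and the tubulin gene tbb-1, which share 1 peak at 14.0 and 12.2. With 2 samples such a likeness is one of level.

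The letters under the peaks were searched on both strands for TTCCCGC (E2F-like), TTTGAA or TTCGAA (the cell cycle genes homology region, CHR, bound by the DRM complex), GAGAG (as bound by GAF-type factors in flies), GGGCGG (SP1-like), CACGTG (an E-box), and the word GAGCG. A match is a description of the sequence and not a shown binding site. In the mcd-1 peak, in the sequence given above, TTCCCGC occurs 15 bp from the summit on the plus strand. Of 242 bp windows centred on conservative summits 6.41% hold it, and of promoters of that length, ending at the 5′ end, 2.69%. The peak also holds CTCTC, the reverse complement of GAGAG, which 53.6% of summit windows and 33.9% of promoters hold. Neither CHR form occurs in it.

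At icd-1 the peak holds GAGAG at 2 places, 3 and 11 bp from the summit, a motif in 61.9% of summit windows and 43.8% of promoters of 367 bp. The icd-2 promoter peak holds TTTGAA at 2 places, 15 and 191 bp from the summit, and GAGCG at 31 bp. TTTGAA or TTCGAA is in 71.1% of summit windows and 82.6% of promoters of 431 bp, and GAGCG in 52.5% and 24.3%. The psf-3 peak of 178 bp holds TTCCCGC 4 bp from its summit, against 5.15% of summit windows and 1.90% of promoters of that length. At eif-3.K and pqn-68, GAGAG occurs at 2 overlapping places, 30 and 28 bp from the summit, and GAGCG at 71 bp. None of the 6 motifs was common to the strongest peak of all 4 genes. The GC content around those 4 summits was 47.5% for mcd-1, 48.5% for icd-1, 43.6% for icd-2 and 53.5% for eif-3.K, against a median of 49.5% and quartiles of 43.6% and 54.5% over the conservative peaks.

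Other genes of the same pathways were counted by promoter-proximal conservative summits, against the 13.2% of all genes. Of the 5 core cell death genes egl-1, ced-13, ced-9, ced-4 and ced-3, none had a summit. Reaching 2000 bp upstream added ced-9 and ced-3, where 16.5% of all genes had a summit. Of 18 regulators of cell death and factors of DNA degradation, 4 had a summit: the nuclease gene crn-1 (1.99 ± 0.206 times the median, n = 2), cnt-1 (0.965 ± 0.551), crn-2 (0.659 ± 0.0132) and wah-1, the worm homologue of apoptosis-inducing factor (0.610 ± 0.0394). In the list of replicate 1 alone only crn-1 of these had one, where 12.4% of all genes did. In the list of replicate 2 crn-1, crn-2, cnt-1 and tfg-1 had one, where 10.8% of all genes did. The 3 members with a promoter peak, at 2.35 to 12.9 times the median, stood above the 4 genes with a conservative summit. The peak near eif-3.K, at 0.579 and not promoter-proximal to it, stood below them. With each summit given to its nearest protein-coding 5′ end the count was 3 of 18, without crn-2, against 9.71% of all genes.

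A list was made of lin-35, whose role overlaps with that of mcd-1, its partners in the DRM complex and a further E2F gene. Of its 9 genes 6 had a summit, and the further E2F gene was not among these. Their median signal was 1334, against 224 over all genes with a summit. They included lin-54 (34.8 ± 3.28 times the median), the E2F gene efl-1 (22.8 ± 0.0942), lin-35 (8.71 ± 1.80) and lin-9 (8.53 ± 1.11). Only efl-1 and lin-54 exceeded icd-2. The lin-54 peak lies nearer to rpl-12, and with each summit given to its nearest protein-coding 5′ end the count was 3 of 9, against 9.71% of all genes.

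Among the subunits of eIF3, 9 of 13 genes had a summit, and eif-3.K was among the 4 that had none. The strongest were eif-3.C (8.81 ± 0.0569 times the median), eif-3.B (2.94 ± 0.158), eif-3.E (2.46 ± 0.0182) and eif-3.J (1.83 ± 0.509). The median signal of the 9 was 184, and 5 of 13 had a summit whose signal reached the list's median, against 9.01% of all genes. With each summit given to its nearest protein-coding 5′ end the count was 7 of 13, against 9.71% of all genes. Protein targeting to the endoplasmic reticulum is the route that nascent chains enter beside the icd-1 and icd-2 complex. A list of this targeting and of the compartment's stress response held 7 genes found by name. Most of the 7 belong to the stress response, so their count says little about targeting. Of the 7 genes, 5 had a summit. They included atf-6 (9.07 ± 0.995), the chaperone genes hsp-3 (4.60 ± 0.559) and hsp-4 (1.38 ± 0.0939), and xbp-1, a transcription factor gene of the unfolded protein response (1.25 ± 0.244). The counts of these lists are descriptions, and no set test was made.

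**Figure D3:**
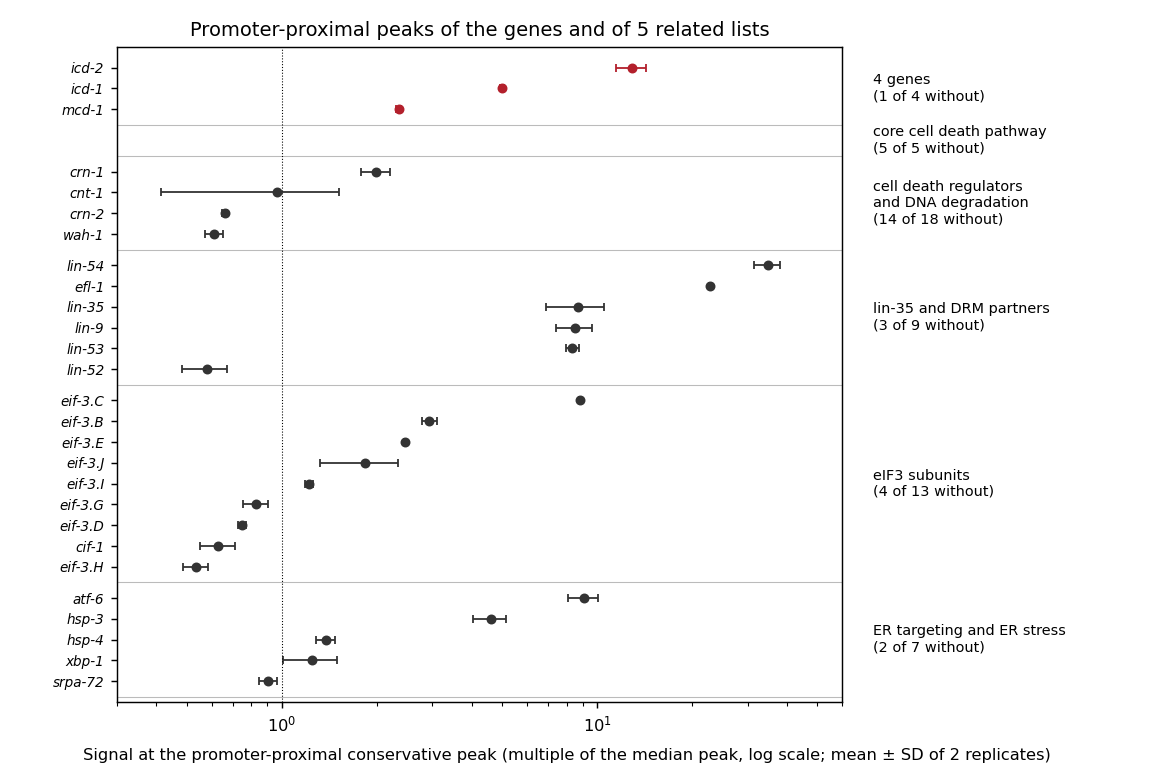
Signal at the promoter-proximal conservative peak of each gene on a log x axis, as a multiple of the median conservative peak; points are means, bars the SD of 2 replicates and the dotted line the median peak. Of the 4 genes, mcd-1, icd-1 and icd-2 are in red, and eif-3.K, which lacks such a peak, has no point. The 5 related lists are in black, with the number of genes that lack such a peak beside each list. icd-2 at 12.9 lies below lin-54 and efl-1 and above every eIF3 subunit, and the core cell death pathway has no point.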

How the data were processed

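Peak lists from ChIP-seq of 2 biological replicates were used as deposited by the authors, on the ce11 build. The series lists derive from both replicates' alignments and each replicate's lists from its own, as the files' deposited description states. Aligner and peak caller: not given in the sources used here, which leaves the signal's scaling unknown. The authors deposited a signal value, a score up to 1000 and a summit offset per peak, and a −log10 IDR in the ranked lists. The ranked lists hold further columns without sample names, 16 in the 2 series lists, which were not used. Read depth is unknown, and the error of a value is the SD of 2 replicates.

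Genes came from Ensembl release 115 and sequences from RefSeq's WBcel235; no nuclear peak passed a chromosome end. Each replicate's value at a peak was the overlapping ranked peak (1 bp) with the nearest summit, and ranks were by signal. Nearest 5′ ends were taken over protein-coding genes. GC content was over 50 bp to each side of a summit. No significance test was made. Functions were tested on simulated peaks. Python 3.11.15, numpy 2.4.6 and matplotlib 3.10.9 were used. The genes, lists, motifs and tests were chosen with earlier results of these data known. Named besides the 4 genes were their neighbours, up to 4 strongest genes of each list, and for each promoter peak the 2 nearest genes in replicate values. For the core cell death list, ced-9 and ced-3, and for replicate 2, tfg-1, were named after their values were seen. wan-1, eif-3.M, sec-61 and emo-1 had no match by name, and 1 further gene of the lists is not reported here. The longest repeats were searched after the sequences were seen.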

Additional observations from a re-analysis of the deposited data

How the results depend on the processing

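Dividing by the median over the pooled peaks gave means of 2.63 for mcd-1, 5.57 for icd-1, 14.4 for icd-2 and 0.647 for eif-3.K. Dividing by each replicate's own thresholded list gave 1.90, 4.03, 10.4 and 0.469. The strongest overlapping peak gave 2.31 for mcd-1 and 4.89 for icd-1, and a reciprocal overlap of 50% gave 2.43 and 5.14. The order of the 4 genes was the same under each of these. Each replicate alone gave 2.32 to 2.38, 4.93 to 5.03, 11.9 to 13.9 and 0.565 to 0.592. As a share of its list, the rank of mcd-1 was 19.2% in the conservative list, 16.8% in the pooled list and 24.1% to 24.2% in the replicates' own lists. For icd-1 it was 8.53%, 7.47% and 9.80% to 10.8%, and for icd-2 1.95% and, in the replicates, 2.19% to 2.56%. For eif-3.K it was 82.2%, and 76.1% in the pooled list, with no value in a replicate's list. Lists of other lengths give other shares. Counts of list genes moved by over 1.5 times for the core pathway, from 0 to 2 with 2000 bp upstream; for the cell death regulators, from 4 to 1 at or above the median signal and 1 to 4 on the replicates' own lists; for the DRM partners, from 6 to 3 with the nearest protein-coding 5′ end alone; and for eIF3, from 9 to 5 at or above the median signal. The cause was not tested. No paired analysis was possible because there is 1 group.

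With 2 replicates and no read counts, a weak peak such as that at pqn-68 and eif-3.K has no interval of its own, and the absence of a peak in a list is not absence of binding. No untagged control was used here. Peaks of 242 to 507 bp do not separate genes that lie closer than that.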

Other observations

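The 201 bp shown for icd-1 contain a perfect inverted repeat. The arm tgcgtatgtgcccctt, of 16 bases, lies at chrII:6589027-6589042 on the minus strand, and its reverse complement lies 26 bp further along, at chrII:6588985-6589000. The arms lie 35 and 77 bp from the summit, inside the noncoding RNA genes C56C10.14 and C56C10.15. An exact inverted repeat of at least that length was present in 63 of 3903 windows of 201 bp at conservative summits (1.61%) and in 66 of 19973 promoters of that length (0.330%). The arm's letters occur at 4 places in the nuclear genome, those 2 included. Of the others, 1 lies upstream of eef-1A.2, at -304 bp on chromosome X, under a conservative peak of signal 313 at rank 890. The other lies in a pseudogene on chromosome IV, where the strongest ranked peak had a signal of 13.3. The mcd-1 sequence holds a direct tandem repeat of 11 bases, at 59 and 48 bp from the summit; 8.07% of summit windows of 152 bp and 4.96% of promoters hold a direct repeat of at least that length. The longest inverted repeat and the longest direct repeat of each of the sequences shown were searched after the sequences were seen. Those named here had the lowest shares. For the others, 57.7% to 88.3% of summit windows held a repeat of at least that length. These shares are descriptions.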
